A study of Mus musculus with 12 samples.

Results

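The 10 genes described here encode parts of the NF-kappaB pathway and of the feedback that restrains it: the subunits Nfkb1, Nfkb2, Rela and Relb, the inhibitors Nfkbia and Nfkbie, the feedback enzyme Tnfaip3, the ubiquitin ligase Birc3, the adaptor Traf2 and the target gene Icam1. They were taken by name, matched by Ensembl identifier, and all 10 were found among the 38561 genes of the count table and passed the filter on low counts that 15352 genes passed. NF-kappaB is a family of dimeric transcription factors that inhibitors of the IkappaB family hold in the cytoplasm until a kinase complex marks those inhibitors for degradation. In the canonical arm, receptors for TNF, IL-1 and microbial products release dimers that contain p50 and RelA. In the noncanonical arm, receptors such as CD40 and the lymphotoxin beta receptor lead to processing of p100 to p52, which pairs with RelB. Many of the genes that NF-kappaB switches on encode its own subunits and inhibitors, and in beta cells the pathway is known to respond to inflammatory cytokines.

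RNA was sequenced from picked pancreatic islets of 12 male mice aged 11 weeks, each giving 1 library, with 3 mice to a group. NOD_insHEL mice have the NOD/LtJ background and carry insHEL, the transgene Tg(ILK3mHEL)3Ccg, in which an insulin promoter drives hen egg lysozyme in beta cells. NOD mice have the same background without the transgene. B10_insHEL mice have the C57BL/10SnSg background with the transgene, and B10 mice have that background without it. All 4 groups share the Rag-/- state, in which mature T and B cells are missing, as well as the MHC k haplotype and normoglycemia. Between 20 and 137 islets were picked per mouse after a collagenase digestion that included actinomycin D and α-amanitin to stop transcription.

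Library totals ran from 2212062 counts in NOD_insHEL replicate 3 to 21138456 in B10 replicate 2. Summed over 12 islet hormone and endocrine genes, the level was 287413 to 318257 CPM (counts scaled to equal library size) in NOD_insHEL, 266920 to 287688 in NOD, 230140 to 305123 in B10_insHEL and 208073 to 241728 in B10, so that hormone transcripts held a large part of every library. The T and B cell genes Cd3e, Cd3d and Ms4a1 had 0 counts in all 4 groups. Summed over 12 acinar enzyme genes, the level was 33.9 to 70.0 CPM in NOD_insHEL and 121 to 218 in NOD, 47.2, 2151 and 28.5 in B10_insHEL replicates 1 to 3, and 3083 to 3986 in B10. The 3 B10 libraries carry description numbers apart from the run that the other 9 share, so a possible batch cannot be told apart from the B10 group. In such bulk samples, fewer cells of a type and less RNA per cell cannot be told apart.

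Levels are CPM scaled by TMM (trimmed mean of M values) factors, and for the order between genes they were divided by the length of all annotated exons of a gene in kilobases. Gene positions are given on GRCm38, all members being protein-coding. Averaged over the 12 libraries, Nfkbia had the highest level per length (23.5 CPM per kb, range 15.3 to 43.1), followed by Rela (9.93, range 8.03 to 12) and Nfkb1 (6.33, range 4.50 to 8.10). Birc3 (3.55), Traf2 (3.25), Nfkb2 (2.64) and Relb (2.54) followed, and their ranges overlap one another. Nfkbie (1.48), Tnfaip3 (1.38) and Icam1 (1.18) were lowest, again with overlapping ranges. The ranges of Rela and Nfkb1 overlap only at 8.03 to 8.10 CPM per kb, and the lowest Nfkbia value lies above the highest Rela value. The highest library stood at 10.5 times the lowest for Relb, whose lowest value rests on 7 counts. This ratio was 5.93 for Nfkb2, 4.91 for Birc3, 4.30 for Tnfaip3 and 4.15 for Icam1. It was 2.82 for Nfkbia, 2.71 for Traf2, 2.06 for Nfkbie, 1.80 for Nfkb1 and 1.49 for Rela. The genes with the highest level, Nfkbia, Rela and Nfkb1, are thus among those with the lower ratios, as are Traf2 and Nfkbie.

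**Figure D1:**
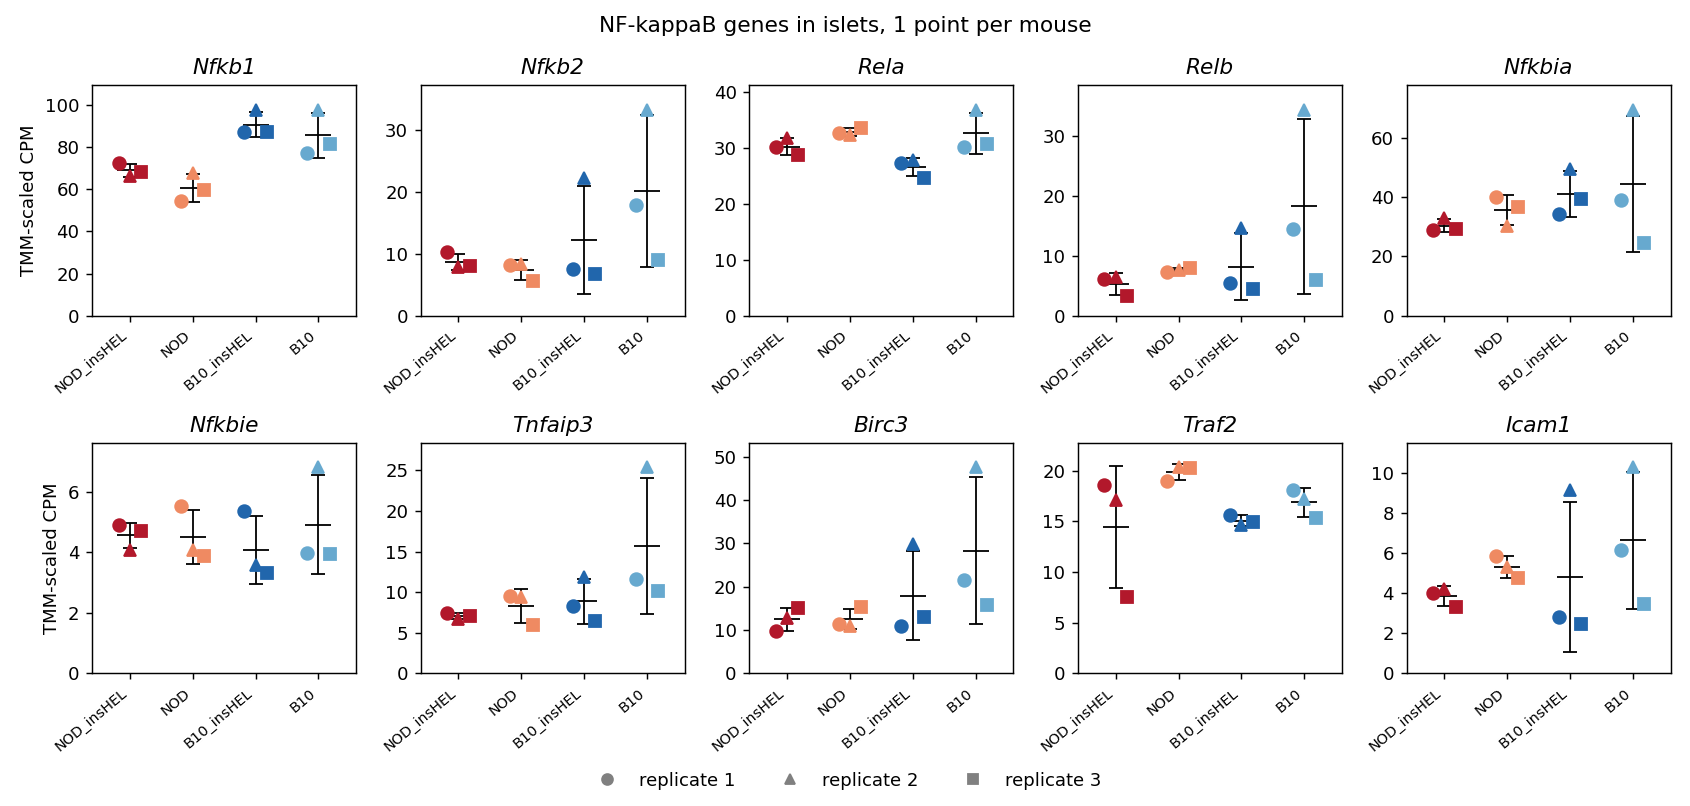
TMM-scaled CPM (vertical axis, from 0) of each of the 10 genes in the 12 libraries, by group (horizontal axis). Each point is 1 mouse, with its shape giving the replicate number, and the black line and bars are the mean and SD of 3 mice. For Nfkb1 all 6 libraries of the NOD background lie below all 6 of the B10 background, while for Nfkb2, Relb, Tnfaip3, Birc3 and Icam1 the spread within B10 is wider than the step between groups.

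Nfkb1 (ENSMUSG00000028163, chromosome 3, 135584655 to 135691547, minus strand), which encodes the p105 precursor of the p50 subunit, was the member whose strain difference passed the test in every strain comparison. It had 72.5, 66.2 and 68.1 CPM in NOD_insHEL and 54.3, 67.7 and 59.6 CPM in NOD islets, against 87.0, 97.5 and 87.2 CPM in B10_insHEL and 77.0, 97.7 and 81.6 CPM in B10 islets. No library of the NOD background reached any library of the B10 background. Group means were 68.9 ± 3.21 CPM in NOD_insHEL and 60.5 ± 6.75 CPM in NOD, against 90.6 ± 6.01 CPM in B10_insHEL and 85.4 ± 10.9 CPM in B10 (SD, n = 3 each). By edgeR's quasi-likelihood test, adjusted over all genes tested by the Benjamini-Hochberg method and called at an adjusted p under 0.05, the log2 difference averaged over both transgene states was -0.44 (SE 0.08, adjusted p = 0.000293). Without the transgene it was -0.50 (SE 0.11, adjusted p = 0.00289), and among insHEL carriers -0.39 (SE 0.12, adjusted p = 0.0316). The averaged call held in every alternative and with any 1 library left out (-0.35 to -0.51). The call among carriers ended without NOD_insHEL replicate 1, 2 or 3 or without B10_insHEL replicate 2 (adjusted p = 0.0596 to 0.115), and the call without the transgene ended with the acinar score (-0.36, SE 0.16, adjusted p = 0.183) or the endothelial score (-0.61, SE 0.23, adjusted p = 0.184) as a covariate.

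The 6 comparisons and their background set the other members in context. Among all genes tested, 6.5% were called lower in NOD_insHEL than in B10_insHEL, and Nfkb1 was the 1 of 10 members called. In NOD against B10, 14.9% of genes were called lower, and so were 2 of 10 members, Nfkb1 and Tnfaip3. For the averaged strain difference the share was 17.6%, and 1 of 10 members, Nfkb1, was called. No member was called higher in a NOD group, where the shares of all genes were 5.55%, 13.5% and 15.7% in the same order. These counts are close to the background and do not set the list apart. The members' median log2 difference was -0.37 among carriers, -0.41 without the transgene and -0.41 averaged, beside -0.01, 0.03 and 0.01 for all genes tested. Counting sides whose libraries do not overlap, 2 of 10 members were lower in NOD_insHEL than in B10_insHEL (Nfkb1 and Nfkbia; 14.2% of all genes), 4 of 10 lower in NOD than in B10 (Nfkb1, Nfkb2, Tnfaip3 and Birc3; 23.8%), and 1 of 10 lower over all 12 libraries (Nfkb1; 6.4%). In the other direction, Rela was higher without overlap among carriers and Traf2 in NOD against B10. The share of all genes higher without overlap was not counted.

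**Figure D2:**
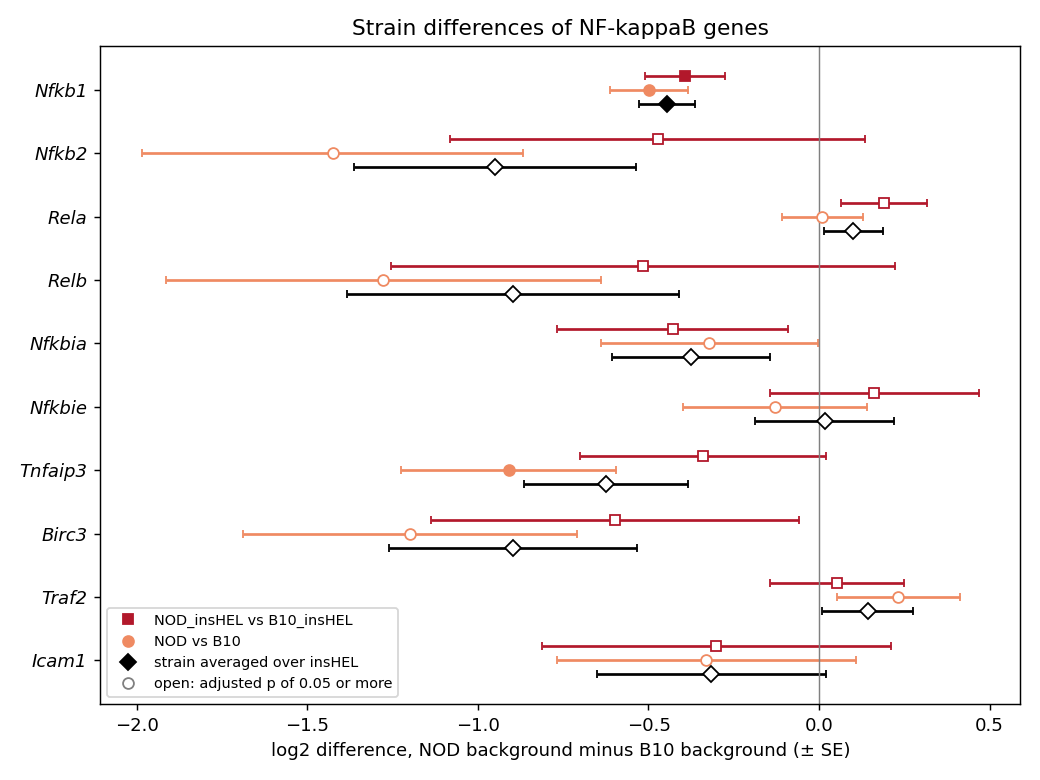
Log2 difference between the NOD and the B10 background (horizontal axis, negative meaning lower in NOD) for the 10 genes, with SE, among insHEL carriers, without the transgene and averaged over both. Filled symbols have an adjusted p under 0.05: all 3 for Nfkb1 and, for Tnfaip3, only the comparison without the transgene (-0.91).

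Rela (ENSMUSG00000024927, chromosome 19, 5637483 to 5648130, plus strand), the gene of the main transactivating subunit RelA, was the steadiest member. It had 30.1, 31.7 and 28.6 CPM in NOD_insHEL and 32.6, 32.3 and 33.6 CPM in NOD islets, against 27.2, 27.8 and 24.7 CPM in B10_insHEL and 30.2, 36.8 and 30.6 CPM in B10 islets. The NOD_insHEL values lay above all B10_insHEL values, and the NOD values lay within the range of B10. Its averaged strain difference was 0.10 (SE 0.09, adjusted p = 0.392), and 0.19 (SE 0.13, adjusted p = 0.363) among carriers.

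Nfkb2 and Relb, the genes of the 2 subunits of the noncanonical arm, varied most. Nfkb2 (ENSMUSG00000025225, chromosome 19, 46304320 to 46312385, plus strand), which encodes p100, the precursor of p52, had 10.3, 7.91 and 7.98 CPM in NOD_insHEL and 8.18, 8.43 and 5.62 CPM in NOD islets, against 7.63, 22.3 and 6.81 CPM in B10_insHEL and 18.0, 33.3 and 9.06 CPM in B10 islets. All 3 B10 libraries lay above all 3 NOD libraries, but 2 of the 3 B10_insHEL libraries lay below all 3 NOD_insHEL libraries. The log2 difference was -1.43 (SE 0.56, adjusted p = 0.0896) in NOD against B10 and -0.95 (SE 0.41, adjusted p = 0.112) averaged, and neither passed. Nfkb2 was called in NOD against B10 with DESeq2 (-1.45, adjusted p = 0.0433), with the islet number as a covariate (-2.02, adjusted p = 0.0309) and without B10 replicate 3 (-1.79, adjusted p = 0.0305). The exons of Nfkb2 share 299 bases with Psd, a gene on the opposite strand whose level was higher in NOD (averaged log2 difference 0.54, SE 0.10, adjusted p = 0.000319), and 531 bases with AC114539.1, which is not in the count table. Relb (ENSMUSG00000002983, chromosome 7, 19606217 to 19629438, minus strand) had 6.23, 6.46 and 3.29 CPM in NOD_insHEL and 7.27, 7.63 and 8.06 CPM in NOD islets, against 5.48, 14.6 and 4.44 CPM in B10_insHEL and 14.5, 34.5 and 5.93 CPM in B10 islets. Its ranges overlapped in both pairs of groups, with B10 replicate 3 below every NOD library. The averaged Relb difference was -0.90 (SE 0.49, adjusted p = 0.197), with 7 counts in NOD_insHEL replicate 3 as the lowest count behind a value.

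Binding sites for NF-kappaB in its own genes are the textbook basis of this feedback, so the 250 bases before each annotated start were searched in RefSeq sequence (build GRCm38.p6) on both strands for a loose kappaB pattern (3 G bases, any 5 bases, 2 C bases) and for the stricter kappaB consensus, whose matches are all matches of the loose pattern as well. A window was found for 8 of 10 members, Nfkb1 and Relb being the others. The loose pattern was in a window of 8 of 8 members and in a window of 48.7% of all 27025 genes, so it separates little. The kappaB consensus was in windows of 4 of 8 members (Nfkb2, Nfkbia, Nfkbie and Tnfaip3) and of 4.46% of all genes. Nfkb2 has 3 windows, so more bases were searched for it than for any other member. Of the 250 bases in each, 250, 167 and 234 lie in annotated exons for starts 1, 2 and 3 in turn. The Nfkb2 stretches are shown because each of its 3 annotated starts has a consensus match (in capitals) and no other member has as many. They lie on the plus strand of chromosome 19 at chr19:46304688-46304717, chr19:46304716-46304745, chr19:46305449-46305478 and chr19:46305695-46305724, and the capitals of the first hold 2 overlapping matches.
Nfkb2 start 1, upstream stretch: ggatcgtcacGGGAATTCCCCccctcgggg
Nfkb2 start 1, stretch at the start: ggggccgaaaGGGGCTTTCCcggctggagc
Nfkb2 start 2: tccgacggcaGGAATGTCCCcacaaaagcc
Nfkb2 start 3: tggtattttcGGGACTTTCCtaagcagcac

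Of the 2 IkappaB members, which bind the dimers and keep them out of the nucleus, Nfkbia (ENSMUSG00000021025, chromosome 12, 55489410 to 55492647, minus strand) is itself a fast target of the pathway. It had 29, 33.0 and 29.1 CPM in NOD_insHEL and 40.1, 30.2 and 36.7 CPM in NOD islets, against 34.2, 49.4 and 39.5 CPM in B10_insHEL and 38.9, 69.4 and 24.6 CPM in B10 islets. All NOD_insHEL values lay below all B10_insHEL values, while B10 held both the highest and the lowest of the 12. Its log2 difference was -0.43 (SE 0.34, adjusted p = 0.480) among carriers, -0.32 (SE 0.32, adjusted p = 0.491) without the transgene and -0.38 (SE 0.23, adjusted p = 0.249) averaged. Nfkbie (ENSMUSG00000023947, chromosome 17, 45555703 to 45563169, plus strand), the gene of IkappaB epsilon, had 4.89, 4.09 and 4.70 CPM in NOD_insHEL and 5.53, 4.07 and 3.89 CPM in NOD islets, against 5.37, 3.57 and 3.30 CPM in B10_insHEL and 3.98, 6.80 and 3.95 CPM in B10 islets. The 4 groups overlapped, and averaging over the transgene left a strain difference of 0.02 on the log2 scale (SE 0.20, adjusted p = 0.960). The windows of both genes are shown because each holds 1 consensus match and they are the inhibitors of the list. Icam1 stands below them as a window with the loose pattern but no consensus match. It holds ggaaattcct, which differs from the Nfkbia consensus match only in its last base. Both patterns require 3 G bases on a strand, so a window without a match may still hold a binding site. Nfkbia is given on the minus strand at chr12:55492648-55492897 (consensus match at -29 to -20 from the start), Nfkbie on the plus strand at chr17:45555450-45555699 (consensus match at -106 to -97) and Icam1 on the plus strand at chr9:21015690-21015939. Capitals mark every match of the loose pattern on either strand.
Nfkbia: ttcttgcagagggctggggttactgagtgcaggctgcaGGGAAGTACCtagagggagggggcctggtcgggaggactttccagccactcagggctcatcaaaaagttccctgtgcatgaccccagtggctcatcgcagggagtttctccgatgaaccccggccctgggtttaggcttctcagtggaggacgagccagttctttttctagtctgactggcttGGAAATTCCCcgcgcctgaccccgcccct
Nfkbie: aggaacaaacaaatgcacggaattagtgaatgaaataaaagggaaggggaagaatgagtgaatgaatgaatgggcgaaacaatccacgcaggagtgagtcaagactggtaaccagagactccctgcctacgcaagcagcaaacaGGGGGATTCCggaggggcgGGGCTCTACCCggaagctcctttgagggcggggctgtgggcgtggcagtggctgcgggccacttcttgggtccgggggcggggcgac
Icam1: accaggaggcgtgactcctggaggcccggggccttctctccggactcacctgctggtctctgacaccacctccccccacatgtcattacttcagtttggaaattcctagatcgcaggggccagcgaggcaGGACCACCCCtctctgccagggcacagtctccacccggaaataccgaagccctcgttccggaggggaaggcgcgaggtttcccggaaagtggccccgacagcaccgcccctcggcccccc

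Tnfaip3 (ENSMUSG00000019850, chromosome 10, 19000910 to 19015657, minus strand) encodes A20, a ubiquitin-editing enzyme that shuts off signalling from the TNF receptor and from Toll-like receptors. It had 7.38, 6.73 and 7.04 CPM in NOD_insHEL and 9.50, 9.45 and 5.90 CPM in NOD islets, against 8.27, 11.9 and 6.50 CPM in B10_insHEL and 11.6, 25.4 and 10.2 CPM in B10 islets. All NOD values lay below all B10 values, and the carriers overlapped. Tnfaip3 was lower in NOD than in B10 by -0.91 on the log2 scale (SE 0.32, adjusted p = 0.0428), but missed the threshold averaged over the transgene (-0.62, SE 0.24, adjusted p = 0.0575) and among carriers (-0.34, SE 0.36, adjusted p = 0.607). The NOD against B10 call ended without NOD replicate 1, 2 or 3 or B10 replicate 2 (adjusted p = 0.0644 to 0.289), and without B10 replicate 2 the difference was -0.39. Its promoter matches sit on the minus strand at chr10:19015516-19015545 and chr10:19015403-19015432 and are shown, with the consensus in capitals, because Tnfaip3 passed a strain test and holds both matches in 1 window. Of the 250 bases of that window, 110 lie in annotated exons.
Tnfaip3, distal stretch: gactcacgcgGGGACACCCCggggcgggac
Tnfaip3, stretch at the start: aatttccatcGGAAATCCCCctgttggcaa

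Birc3 and Traf2 encode proteins that sit together at TNF receptor family members. Birc3 (ENSMUSG00000032000, chromosome 9, 7848699 to 7873186, minus strand), which encodes cIAP2, a ubiquitin ligase and itself a target of the pathway, had 9.68, 12.8 and 15.0 CPM in NOD_insHEL and 11.4, 11.0 and 15.3 CPM in NOD islets, against 11.0, 29.7 and 13 CPM in B10_insHEL and 21.5, 47.5 and 15.7 CPM in B10 islets. NOD and B10 did not overlap, by a margin of 15.3 to 15.7 CPM, and the carriers did. Its log2 difference was -1.20 (SE 0.49, adjusted p = 0.101) in NOD against B10 and -0.90 (SE 0.36, adjusted p = 0.0904) averaged. Traf2 (ENSMUSG00000026942, chromosome 2, 25517982 to 25546940, minus strand), the adaptor that recruits such ligases, had 18.6, 17.1 and 7.51 CPM in NOD_insHEL and 19.0, 20.3 and 20.3 CPM in NOD islets, against 15.7, 14.6 and 15.0 CPM in B10_insHEL and 18.1, 17.3 and 15.3 CPM in B10 islets. The low NOD_insHEL value rests on 16 counts in the shallowest library. All NOD values lay above all B10 values, but the difference of 0.23 (SE 0.18, adjusted p = 0.354) did not pass.

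Icam1 (ENSMUSG00000037405, chromosome 9, 21015985 to 21028817, plus strand) encodes an adhesion molecule for leukocytes and is a standard readout of NF-kappaB activity. It had 4.03, 4.22 and 3.29 CPM in NOD_insHEL and 5.86, 5.31 and 4.75 CPM in NOD islets, against 2.79, 9.13 and 2.48 CPM in B10_insHEL and 6.14, 10.3 and 3.48 CPM in B10 islets. Both groups of the B10 background spanned all values of their NOD counterparts. The averaged difference was -0.32 (SE 0.34, adjusted p = 0.507), and it turned positive (0.36, adjusted p = 0.262) when both replicate 2 libraries of the B10 background were left out. The exons of Icam1 share 511 bases with the antisense gene Gm47079, which is not in the count table.

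B10 replicate 2 had the highest level of the 12 libraries for 9 of 10 members, against 6.03% of all genes tested, with Traf2, highest in NOD replicate 2, as the exception. B10 replicate 2 and B10_insHEL replicate 2 were the 2 highest libraries for 7 of 10 members (Nfkb1, Nfkb2, Relb, Nfkbia, Tnfaip3, Birc3 and Icam1), against 2.81% of all genes. Among 77 tested genes of a wider pathway list, 11 had the same 2 libraries on top: Tlr2, Traf3, Bcl10, Rel, Bcl3, Cyld, Tnip1, Otud7b, Itch, Ccl2 and Gadd45b. Ccl2, which encodes a monocyte chemoattractant, had 2.52 CPM in B10_insHEL replicate 2 and 2.07 CPM in B10 replicate 2. These mice were picked out after their values were seen, they differ in transgene and, by their description numbers, possibly in batch, and no test was made on them.

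**Figure D3:**
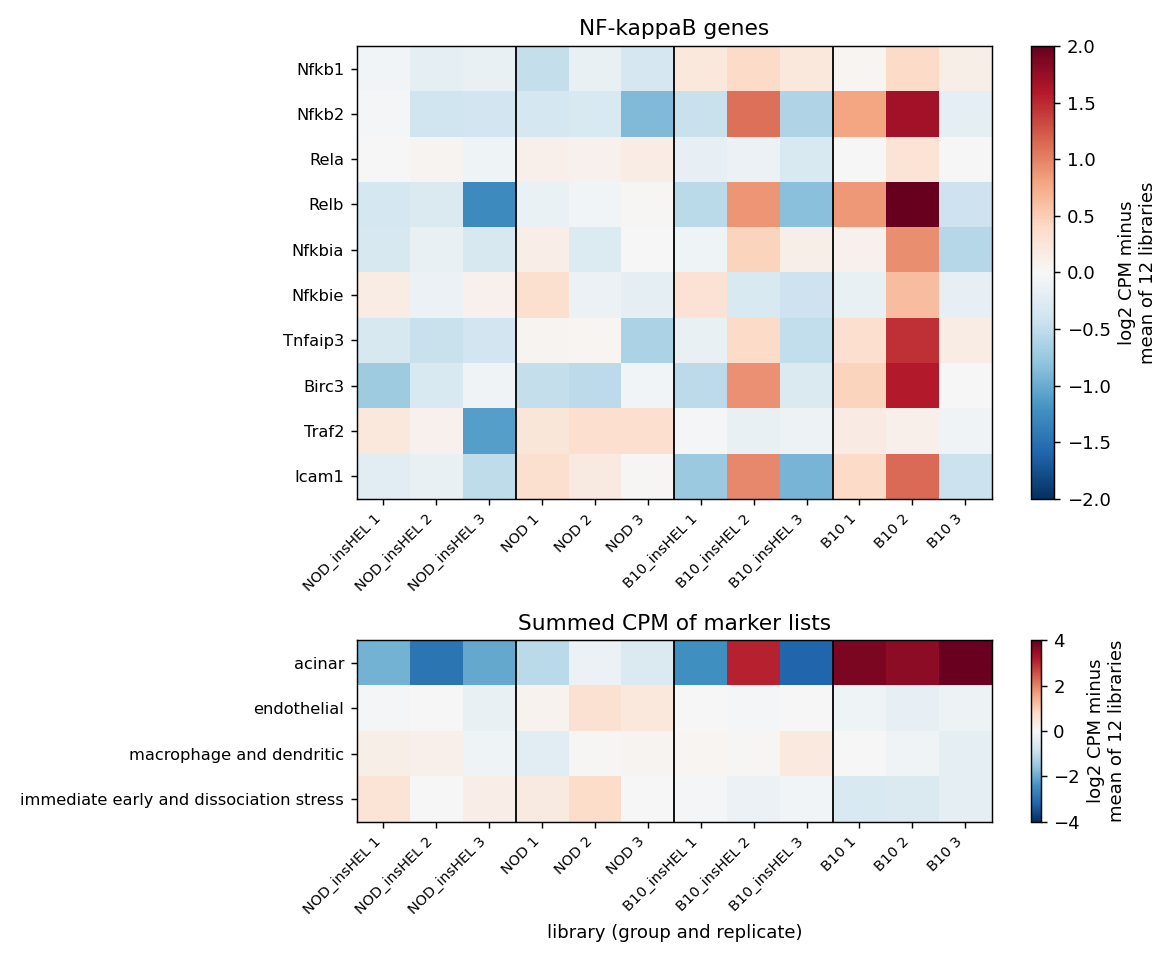
Log2 CPM of the 10 genes (upper panel) and log2 summed CPM of 4 marker lists (lower panel), each minus its mean over the 12 libraries, with libraries in columns and separate colour scales. The columns B10 2 and B10_insHEL 2 are red for most genes, and the acinar row is red in these and in B10 1 and B10 3, where Tnfaip3 stands at 11.6 and 10.2 CPM and Relb at 14.5 and 5.93 CPM.

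The acinar sum was high in both libraries (3083 CPM in B10 replicate 2 and 2151 CPM in B10_insHEL replicate 2), as it was in B10 replicates 1 (3482 CPM) and 3 (3986 CPM). These 4 libraries were the 4 highest of 12 for 2 of 10 members, Tnfaip3 and Birc3, against 4.14% of all genes tested. They held 3 of the 4 highest places for Nfkb2, Relb and Icam1, 2 for Nfkb1 and Nfkbia, 1 for Rela and Nfkbie and 0 for Traf2. B10 replicate 3 had the lowest Nfkbia level of the 12 libraries. The macrophage and dendritic list summed to 188 to 249 CPM in NOD_insHEL, 157 to 228 in NOD, 218 to 277 in B10_insHEL and 162 to 213 in B10, and neither library was the highest of its group. The immediate early and dissociation stress list summed to 171 CPM in B10 replicate 2 and 215 CPM in B10_insHEL replicate 2. Every library of the B10 background (165 to 199 CPM in B10, 215 to 248 CPM in B10_insHEL) lay below every library of the NOD background (249 to 423 CPM). The endothelial list was 1540 to 2159 CPM in NOD and 1126 to 1247 CPM in B10. With the acinar or the endothelial score as a covariate no member passed in NOD against B10, while Nfkb1 stood at -0.36 and -0.61 and Tnfaip3 at -0.46 and -0.34. The SE was larger in these fits (0.16 and 0.23 for Nfkb1, 0.46 and 0.65 for Tnfaip3), and calls over all genes were 1399 and 468, against 4353 without a covariate. The B10 libraries are the 3 with the highest acinar sums, so acinar content and the B10 group cannot be told apart there, and the part of the other lists in the result was not tested.

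Leaving out both replicate 2 libraries of the B10 background, a choice made after seeing the data, changed which members passed. In NOD against B10, Nfkb2 was then lower by -0.87 (SE 0.25, adjusted p = 0.0161) and Birc3 by -0.61 (SE 0.21, adjusted p = 0.0358), Nfkb1 stayed lower (-0.41, SE 0.12, adjusted p = 0.0143), and Tnfaip3 did not pass (-0.39, adjusted p = 0.221). Of all 15352 genes, 2046 were called lower in NOD than in B10 in this fit, and 2203 averaged. Averaged over the transgene, the differences were then -0.28 for Nfkb2, -0.11 for Relb, -0.22 for Tnfaip3 and -0.30 for Birc3, none of which passed, and -0.37 for Nfkb1 (SE 0.08, adjusted p = 0.00212). Without B10 replicate 3 alone, 5 members were called lower in NOD than in B10 (Nfkb1, Nfkb2, Relb, Nfkbia and Tnfaip3) and 6 averaged, with Birc3 added. In that fit 1731 of all 15352 genes were called lower in NOD than in B10, and 2456 averaged.

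**Figure D4:**
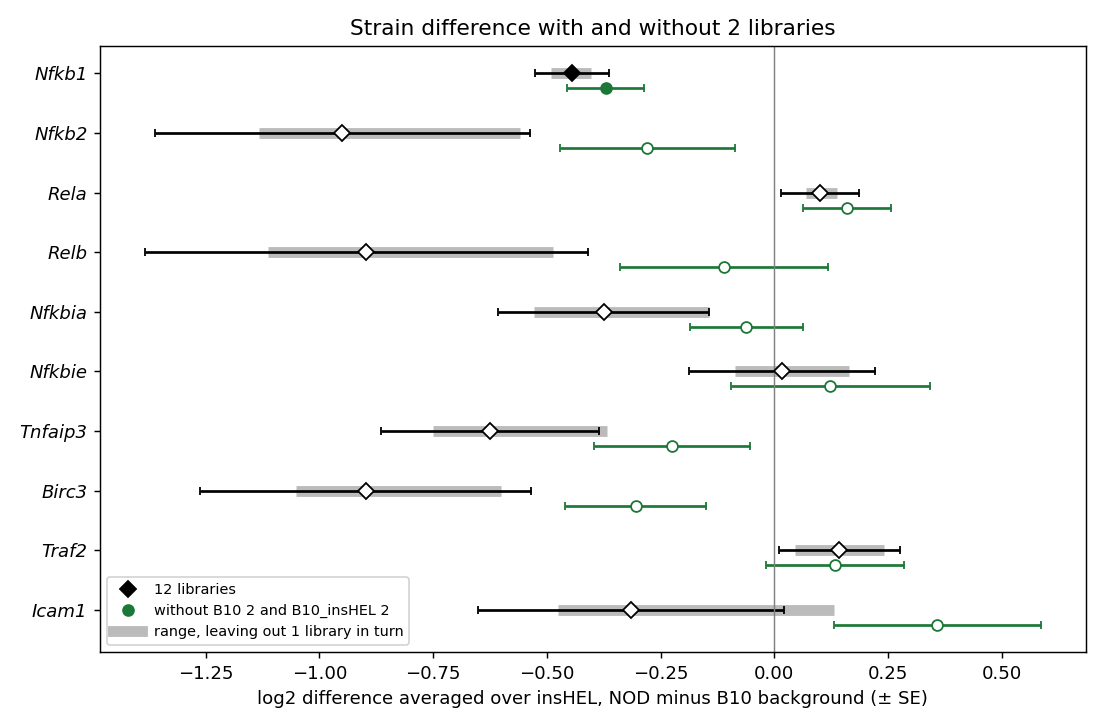
Log2 strain difference averaged over the transgene (horizontal axis, NOD minus B10 background) for the 10 genes, with SE, from all 12 libraries (black) and without B10 2 and B10_insHEL 2 (green); filled symbols have an adjusted p under 0.05, and gray bars span the values with 1 library left out at a time. Nfkb1 stands at -0.37 without the 2 libraries and -0.44 with them, Relb at -0.11 and -0.90, and Icam1 on opposite sides of 0.

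With insHEL, no member passed the test on either background. In NOD_insHEL against NOD, 0 of 10 were called, beside 7.06% of all genes, and 0 had an unadjusted p under 0.05, beside 3614 of 15352 genes. In B10_insHEL against B10, 0 of 10 were called, beside 6.85% of all genes, and 2 had an unadjusted p under 0.05, beside 3350 of 15352 genes. These 2 were Tnfaip3 (-0.82, SE 0.31, adjusted p = 0.132) and Rela (-0.29, SE 0.12, adjusted p = 0.143). DESeq2 called none in either comparison, beside 1430 of 13512 genes in NOD and 1354 of 13512 in B10. Nfkb1 differed by 0.19 (SE 0.12, adjusted p = 0.355) with the transgene in NOD and by 0.08 (SE 0.11, adjusted p = 0.727) in B10. Libraries did not overlap for 4 of 10 members lower in NOD_insHEL than in NOD (Rela, Relb, Traf2 and Icam1; 13.3% of all genes) and for 1 of 10 lower in B10_insHEL than in B10 (Rela; 13.5%). Rela was the member that was lower without overlap on both backgrounds, by -0.11 (SE 0.12, adjusted p = 0.637) in NOD, and neither difference passed. In B10_insHEL against B10 without B10_insHEL replicate 2, Icam1 was called lower (-1.35, adjusted p = 0.0207). Whether the transgene effect differed between backgrounds was tested as an interaction, which called 0 of 10 members and 0.0586% of all genes. No member had an unadjusted p under 0.05 there, beside 1873 of 15352 genes. DESeq2 called none of the 4 members for which it gave an adjusted p, beside 105 of 7934 genes.

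The wider pathway list holds 90 genes in 5 groups, of which 77 could be tested. Averaged over the transgene, 9 were higher (11.7%, beside 15.7% of all genes) and 14 lower (18.2%, beside 17.6%) in the NOD background and 54 did not pass, with a median log2 difference of -0.09. Without the transgene the counts were 8 higher (10.4%, beside 13.5% of all genes), 13 lower (16.9%, beside 14.9%) and 56 not passing. Among carriers they were 4 higher (5.19%, beside 5.55%), 4 lower (5.19%, beside 6.5%) and 69 not passing. These shares are near those of all genes and do not set the list apart. With the acinar score in the fit, 3 were higher and 2 lower averaged, and with the endothelial score 4 and 3, while the calls over all genes were 2428 and 2416, against 5107. Of the 15 genes named below that passed averaged, Cd40, Cx3cl1 and Ier3 kept their call with the acinar score, and Cd40, Cx3cl1, Myd88, Otud7b, Tlr2 and Tnip2 with the endothelial score. Of the 14 that passed in NOD against B10, 1, Cx3cl1, kept its call with either score. With the transgene, 1 was higher and 1 lower in NOD_insHEL against NOD, and 2 were higher and 1 lower in B10_insHEL against B10. These are 2.6% and 3.9% of the list called, beside 7.06% and 6.85% of all genes. The interaction called none of 77 by edgeR, and 7 had an unadjusted p under 0.05, beside 1873 of 15352 genes.

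Among receptors and adaptors 2 of 22 were higher, 5 lower and 15 did not pass in the averaged strain difference (15.7% higher and 17.6% lower over all genes). Cd40, the receptor that feeds the noncanonical arm, had 4.70, 3.69 and 5.63 CPM in NOD_insHEL and 2.73, 3.42 and 4.75 CPM in NOD islets, against 0.860, 0.870 and 0.928 CPM in B10_insHEL and 1.35, 1.04 and 0.886 CPM in B10 islets. Every library of the NOD background lay above every library of the B10 background, where the values rest on 8 to 23 counts. Its log2 difference was 2.02 averaged (SE 0.25, adjusted p = 2.99e-06), 2.34 among carriers (SE 0.38, adjusted p = 0.000182) and 1.70 without the transgene (SE 0.33, adjusted p = 0.000738), where it stood at 1.78 (SE 0.58, adjusted p = 0.0572) with the acinar score in the fit and 1.54 (SE 0.64, adjusted p = 0.226) with the endothelial score. Tlr2, the Toll-like receptor for bacterial lipoproteins, was lower by -0.71 (SE 0.15, adjusted p = 0.00201), or -0.30 (adjusted p = 0.195) with the acinar score, and the second TNF receptor gene Tnfrsf1b by -0.58 (SE 0.17, adjusted p = 0.0125). Traf3, the adaptor that holds the noncanonical kinase in check, was lower in NOD than in B10 by -0.66 (SE 0.16, adjusted p = 0.00503), or -0.33 (adjusted p = 0.353) with the acinar score and -0.59 (adjusted p = 0.376) with the endothelial score. Myd88, the adaptor of Toll-like and IL-1 receptors, was higher by 0.29 (SE 0.11, adjusted p = 0.0470), a call that ended when any of 9 libraries was left out, among them NOD_insHEL replicate 3 (0.21, adjusted p = 0.115). Among carriers Il1rap, the accessory chain of the IL-1 receptor, was higher by 0.72 (SE 0.20, adjusted p = 0.0186), but not without NOD_insHEL replicate 2 (0.56, adjusted p = 0.128).

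The kinases that release NF-kappaB did not pass in the averaged comparison. The log2 difference was 0.00 for Ikbkb, -0.06 for Ikbkg, -0.19 for Chuk and -0.06 for Map3k14, with adjusted p from edgeR of 0.976, 0.569, 0.0573 and 0.790. Chuk had 92.0 to 106 CPM in NOD and 115 to 134 CPM in B10 islets, without overlap (23.8% of all genes lower so). Among carriers its ranges overlapped, and those of Ikbkb, Ikbkg and Map3k14 overlapped in NOD against B10. Of 17 kinases and ubiquitin ligases, 2 were higher, 3 lower and 12 did not pass in NOD against B10 (13.5% higher and 14.9% lower over all genes). Averaged over the transgene, 2 were higher, 1 lower and 14 did not pass. Tab1, a partner of the kinase TAK1, was higher by 0.40 (SE 0.12, adjusted p = 0.0154), which missed the threshold without NOD_insHEL replicate 1 (0.35, adjusted p = 0.0597) and stood at 0.23 (adjusted p = 0.386) with the acinar score, and Rbck1, a part of the linear ubiquitin ligase, by 0.28 (SE 0.07, adjusted p = 0.00565). Tab2, another TAK1 partner, was lower by -0.23 (SE 0.08, adjusted p = 0.0260), which no longer passed once NOD replicate 3 (adjusted p = 0.0791), NOD_insHEL replicate 3, B10_insHEL replicate 2 or B10 replicate 3 was left out. Bcl10, the adaptor of the MALT1 complex, was lower in NOD than in B10 by -0.38 at the edge of the threshold (SE 0.14, adjusted p = 0.0499), and of the 6 fits with 1 library left out, the call held in the one without B10 replicate 3. It also ended with DESeq2 (adjusted p = 0.0516), with the macrophage score (adjusted p = 0.0629) and with the acinar score in the fit (-0.17, adjusted p = 0.676).

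All 5 other subunit and IkappaB genes had negative averaged differences, beside a median of 0.01 for all genes tested. Of these, 1 passed, beside 17.6% of all genes called lower. Bcl3, an atypical IkappaB that acts with p50 and p52 in the nucleus, had 3.64, 4.88 and 3.76 CPM in NOD_insHEL and 3.22, 2.91 and 4.18 CPM in NOD islets, against 5.05, 7.83 and 3.30 CPM in B10_insHEL and 5.85, 12.4 and 4.50 CPM in B10 islets. Its averaged log2 difference was -0.79 (SE 0.27, adjusted p = 0.0296), and -0.52 (adjusted p = 0.103) without B10 replicate 2 and -0.60 (adjusted p = 0.0909) without B10_insHEL replicate 2, and -0.38 (adjusted p = 0.530) with the acinar score; the call also ended without NOD replicate 1 or 2 or NOD_insHEL replicate 1 or 3 (adjusted p = 0.0572 to 0.0870). The values of the others were -0.59 for Rel (adjusted p = 0.0923), -0.46 for Nfkbid (adjusted p = 0.320), -0.42 for Nfkbib (adjusted p = 0.0550) and -0.32 for Nfkbiz (adjusted p = 0.268).

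Among 11 other feedback inhibitors 1 was higher, 4 were lower and 6 did not pass, beside 15.7% higher and 17.6% lower over all genes. The deubiquitinase gene Otud7b was lower by -0.36 (SE 0.09, adjusted p = 0.00318) and the ubiquitin ligase gene Itch, whose product works with A20, by -0.33 (SE 0.09, adjusted p = 0.00584). With the acinar score these were -0.25 (adjusted p = 0.172) and -0.14 (adjusted p = 0.414). Cyld, the gene of a deubiquitinase that restrains the pathway, was lower in NOD than in B10 by -0.45 (SE 0.12, adjusted p = 0.00647). Tnip2, the gene of an A20-binding protein, was higher by 0.41 averaged (SE 0.11, adjusted p = 0.00613), or 0.34 (adjusted p = 0.152) with the acinar score.

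Of 22 tested target genes, 4 passed as higher and 3 as lower, and 15 did not pass, in the averaged strain difference (15.7% higher and 17.6% lower over all genes). Cx3cl1, which encodes the chemokine fractalkine, had 8.72, 7.12 and 6.10 CPM in NOD_insHEL and 8.18, 8.72 and 10.8 CPM in NOD islets, against 19.8, 14.9 and 13.6 CPM in B10_insHEL and 22.6, 21.9 and 21.0 CPM in B10 islets. The 2 backgrounds did not overlap, and the difference of -1.16 (SE 0.13, adjusted p = 7.42e-07) was called in every alternative. Gadd45b, a stress-response target, was lower among carriers by -1.56 (SE 0.32, adjusted p = 0.00261), with 3.55, 4.49 and 3.76 CPM in NOD_insHEL, against 10.5, 15.1 and 9.18 CPM in B10_insHEL. Ier3, an early-response gene, was higher averaged over the transgene by 0.86 (SE 0.21, adjusted p = 0.00302), and Ptges, which encodes a prostaglandin E synthase, by 0.48 (SE 0.14, adjusted p = 0.0126), or 0.26 (adjusted p = 0.396) with the acinar score. Ccl5, a T cell chemokine gene with 0 to 27 counts per library, was lower by -1.46 (SE 0.48, adjusted p = 0.0234), which did not pass without B10 replicate 2 (adjusted p = 0.102), B10_insHEL replicate 3, NOD replicate 2 or NOD_insHEL replicate 2. Nos2, the inducible nitric oxide synthase gene, was higher in NOD than in B10 by 1.74 (SE 0.48, adjusted p = 0.00981) on 2 to 17 counts per library, but not without B10 replicate 1 or 2 (adjusted p = 0.0506 and 0.0527).

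**Figure D5:**
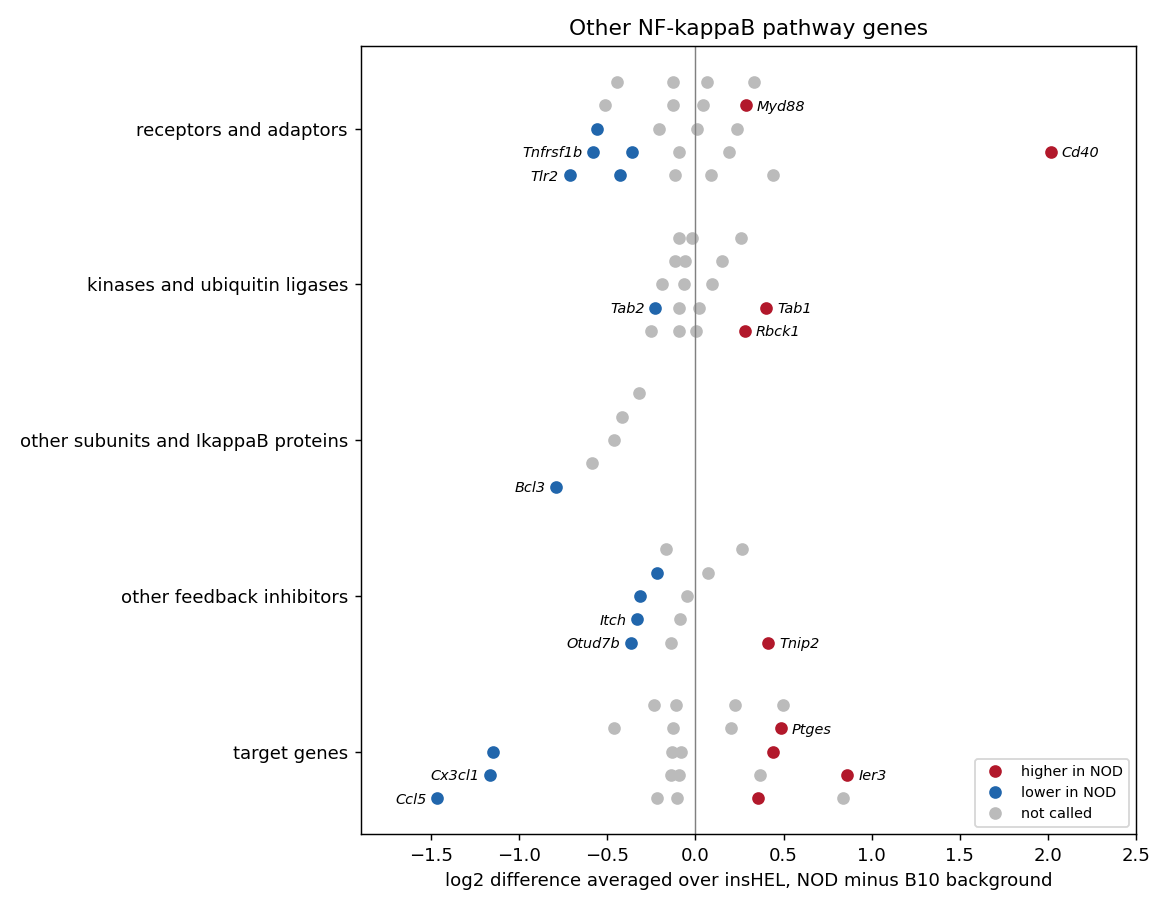
Log2 strain difference averaged over the transgene (horizontal axis, NOD minus B10 background) of the 77 tested genes of the wider list, 1 point per gene, in 5 groups (vertical axis; the offset within a group is only for legibility). The 9 called higher are red, the 14 called lower blue and the 54 not called gray, with Cd40 at 2.02 and Ccl5 at -1.46 as the outermost called genes.

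With the transgene, 3 genes of the wider list passed on the B10 background and 2 others on the NOD background. In B10_insHEL against B10, Ccl5 was higher by 2.04 (SE 0.52, adjusted p = 0.0228), Ptges higher by 0.75 (SE 0.20, adjusted p = 0.0258) and Tbk1, a kinase related to the IkappaB kinases, lower by -0.39 (SE 0.12, adjusted p = 0.0468). Each of these calls ended with the removal of single libraries, Ccl5 and Ptges without B10 replicate 1 or 3 or B10_insHEL replicate 3, and Tbk1 without any one library except B10_insHEL replicate 2. With the acinar score none of the 3 passed, and Ptges stood at 0.35. In NOD_insHEL against NOD, Rbck1 was lower by -0.46 (SE 0.11, adjusted p = 0.0139), but not without NOD replicate 3 or NOD_insHEL replicate 1 or 2 (adjusted p = 0.0596 to 0.0953). Tax1bp1, an A20 partner gene, was higher there by 0.36 (SE 0.11, adjusted p = 0.0422), but not without NOD replicate 2 or 3 or NOD_insHEL replicate 1 or 2 (adjusted p = 0.0961 to 0.216).

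Likeness of pattern was measured as the root mean square difference between z-scored log2 CPM over the 12 libraries, with 0 meaning the same pattern. The nearest gene to each member was searched among 13507 named genes outside the list of members. Nfkb2 and Birc3 had the same nearest gene, Ifngr2, which encodes a chain of the interferon gamma receptor (0.333 and 0.281). The nearest gene was Setd1b for Tnfaip3 (0.333), Cd83 for Nfkbia (0.442), Slpi for Relb (0.453), Cep162 for Icam1 (0.451) and Tmtc3 for Nfkb1 (0.339). For Rela, Nfkbie and Traf2 it was Nr6a1 (0.399), Adgrl3 (0.656) and Dnph1 (0.242). Within the list, Nfkb2 and Tnfaip3 (0.443) and Relb and Icam1 (0.449) were the closest pairs. Relb and Icam1 were nearer to each other than to Slpi or Cep162. The nearest member to Nfkb1, Nfkb2, was at 0.852 and the nearest to Traf2, Rela, at 1.06. These values describe the 12 libraries, which share the high levels of B10 replicate 2, and carry no test.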

How the data were processed

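The authors deposited a table of raw counts with 38561 Ensembl genes as rows and the 12 libraries as columns. Per the submitters' processing notes the reads were processed with cutadapt, TopHat2 2.0.8b, HTSeq and DESeq on GRCm38; the annotation release, strand setting and counting mode are not given in the sources used here, so reads of overlapping genes on opposite strands may have been counted together. Per the labels' protocols the library kit was stranded and selected mRNA. Totals ran from 2212062 to 21138456 counts. Symbols, positions and exon lengths were added by identifier from GENCODE vM21 on GRCm38 (95.2% of identifiers matched), and promoter windows from RefSeq.

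From the counts, edgeR 4.0.16 (R 4.3.3) fitted 1 model of 4 group means over all 12 libraries with TMM factors, the default filter on low counts, and robust quasi-likelihood tests for 6 comparisons. Adjusted p is Benjamini-Hochberg over the 15352 genes tested, and a call is an adjusted p under 0.05. The scripts were tested on simulated data. The interaction is the transgene difference in NOD minus that in B10. Alternatives were DESeq2 1.42.0 as test or as size factors, no filter, a block on the replicate number, islet number, acinar or endothelial score as a covariate, the libraries of the 2 groups only, and each library left out; leaving out both replicate 2 libraries of the B10 background and a macrophage score were added after seeing the data. Scores are mean log2(CPM + 0.5) of the marker genes. The members and all lists were chosen with earlier results of these data known, so no p over a list alone is given. All members were described; of the wider list, the rule named up to 2 called genes with the highest and up to 2 with the lowest log2 difference per group and comparison, and other genes (such as the kinases, the remaining IkappaB genes and those topped by the same 2 libraries) were named after their values were seen. The nearest gene to each member was searched among tested genes with an official symbol, leaving out the members themselves. The windows of Nfkb1 and Relb were not used here.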

Additional observations from a re-analysis of the deposited data

Results flagged for a closer look

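Tnfrsf1b, a receptor gene of the wider list, was flagged by its values, since its differences with the transgene had opposite signs on the 2 backgrounds. It had 3.83, 2.77 and 2.35 CPM in NOD_insHEL and 4.05, 4.43 and 4.61 CPM in NOD islets, and 6.23, 6.61 and 5.47 CPM in B10_insHEL and 5.38, 5.14 and 4.63 CPM in B10 islets. Every transgenic library lay below every library without the transgene on the NOD background (log2 difference -0.45, SE 0.26, adjusted p = 0.315). That held for 13.3% of all genes. On the B10 background every transgenic library lay above (0.27, SE 0.22, adjusted p = 0.508), and the share of all genes doing so was not counted. Neither difference passed. The difference between these effects, tested as an interaction by edgeR, was -0.72 (SE 0.34), with an unadjusted p of 0.0465 and an adjusted p of 0.403, and did not pass.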

How the results depend on the processing

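Over 1054 values of a member under an alternative, 1011 had the same call as the main fit, and most of these were called in neither. The call was lost in 20 and gained in 23, and no called value changed sign. In 86 the sign changed while called under neither setting. All 20 losses were of Nfkb1 or Tnfaip3. Averaged, Nfkb1 was called in 12 of 12 fits with 1 library left out and in 9 of 9 others. In NOD against B10 these were 6 of 6 and 8 of 10 for Nfkb1, and 2 of 6 and 4 of 10 for Tnfaip3. Among carriers they were 2 of 6 and 6 of 10 for Nfkb1. The count of members called in NOD against B10 was 2, and it was 0 with the acinar score, 0 with the endothelial score, 1 with the macrophage score, 1 with the libraries of the 2 groups only, 3 with DESeq2 (Nfkb2 added) and 3 without both replicate 2 libraries of the B10 background. In NOD_insHEL against B10_insHEL the count of 1 became 0 with the acinar or the endothelial score, with the libraries of the 2 groups only and without both replicate 2 libraries of the B10 background. The averaged count of 1 became 2 with DESeq2 (Tnfaip3 added), 2 without the filter (Tnfaip3) and 3 with the islet number (Nfkb2 and Birc3). Leaving out 1 library at a time gave 1 to 5 members in NOD against B10, 0 to 1 in NOD_insHEL against B10_insHEL, 1 to 6 averaged, 0 to 1 in B10_insHEL against B10, and 0 in NOD_insHEL against NOD and in the interaction. The cause of these changes was not tested. Over all genes, 4353 were called in NOD against B10, and 1399 with the acinar score, 468 with the endothelial score and 2688 with the islet number. Calls there were 3569 with the macrophage score and 3598 without both replicate 2 libraries of the B10 background. They were 5323 of 15142 genes with the libraries of the 2 groups only and 4337 of 16940 with DESeq2. Averaged, 5107 were called, and 5113 of 18229 with DESeq2, 5522 of 22976 without the filter and 3900 with the islet number.

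With a block on the replicate number, 3 members were called in the averaged comparison (Nfkb1, Nfkb2 and Tnfaip3, against 1), the same 3 in NOD against B10 (against 2) and 1 in B10_insHEL against B10 (Tnfaip3, against 0). All were lower, beside 2647, 2256 and 423 of 15352 genes called lower in the same order. Same-numbered libraries did not deviate together over all genes tested (r of -0.11 to 0.08 over 18 pairs). Such a correlation cannot show whether same-numbered mice shared their handling, which was not tested. Depth limits the low members: Relb and Icam1 rest on as few as 7 counts and Nfkbie on 10.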
